A study of Homo sapiens with 21 samples.

Results

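The comparison described here sets islet cells that lack PAX6 beside unedited cells when both carry only a control vector. Its members are the 3 libraries whose names start PAX6-BFP and the 2 whose names start WT-BFP, 5 of 21 libraries in all, taken by library name and described across all genes tested. Every library came from islets differentiated from H1, an established human embryonic stem cell line. The genotypes in the labels are WT, PAX6-/-, ISL1-/- and PDX1-/-. Cells took up lentivirus carrying either BFP (a blue fluorescent protein) alone or ISL1 joined to BFP through IRES2 on day 11, and BFP+ cells were sorted on day 18. The groups used are therefore WT with BFP (2 libraries), PAX6-/- with BFP (3), PAX6-/- with ISL1 (3), WT with ISL1 (2), ISL1-/- with BFP (3) and PDX1-/- with BFP (3), all at the same day and all sorted for BFP. The sources used here give neither the position of the PAX6 edit nor the number of knockout clones, so PAX6-/- may be a single clone. The study's design text calls the libraries of a group biological replicates. Libraries are named below by the number in the sample description, which for WT with BFP is 1 and 3.

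PAX6 encodes a transcription factor with 2 DNA-binding parts, a paired domain and a homeodomain. It is made in all hormone-producing cells of the islet and in the endocrine cells of the gut, and it is known for activating the glucagon and insulin genes. In mice without functional Pax6 the islet is known to lack alpha cells and to hold more ghrelin cells. Endocrine cells arise from progenitors that briefly express NEUROG3 and then take on alpha (glucagon), beta (insulin), delta (somatostatin) or epsilon (ghrelin) identity.

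The 5 libraries held 36.8 to 51.9 M counts (1e6), within the range of 36.8 to 60.2 M over all 21. Mitochondrial genes took 1.28% to 1.42% of the counts in the PAX6-/- libraries and 1.59% and 1.69% in the WT libraries. Outside the comparison 2 libraries stood apart, PAX6-/- with ISL1 replicate 3 at 3.16% and PDX1-/- with ISL1 replicate 4 at 3.84%; they enter only through the spread that all groups share in the model. CHGA, the granin that marks endocrine cells, was at 22762, 15191 and 26317 CPM in the PAX6-/- libraries and 19725 and 24048 CPM in the WT libraries, so both groups carried the defining endocrine transcript at similar levels. The pluripotency gene POU5F1 was at most 0.321 CPM in any PAX6-/- library.

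PAX6 itself (ENSG00000007372, chromosome 11, 31784779 to 31817961, minus strand, GRCh38) was at 143, 99.5 and 166 CPM in the PAX6-/- libraries and 140.3 and 232 CPM in the WT libraries. The libraries of the groups overlapped, and edgeR's quasi-likelihood test did not separate them (log2 fold change -0.45, SE 0.45, adjusted p = 0.672). The counts cover the whole gene, and an edit that ends the protein early need not lower the RNA, so this value cannot check the genotype label. ISL1 was at 209, 133 and 236 CPM in the PAX6-/- libraries and 306 and 519 CPM in the WT libraries (log2 fold change -1.10, SE 0.39, adjusted p = 0.112) and PDX1 at 80.3, 63.3 and 81.4 CPM in the PAX6-/- libraries and 80.0 and 102 CPM in the WT libraries (log2 fold change -0.28, SE 0.23, adjusted p = 0.587); neither passed the threshold. ISL1 passed, lower, with the replicate block by description number (adjusted p = 0.0388), with limma voom (0.0013) and with only the groups compared (0.0234). It also passed without either or both libraries of high mitochondrial share (0.0306, 0.0408 and 0.00124). Its log2 fold change lay between -1.43 and -0.67 in every alternative run. The block by description number gives PDX1-/- with ISL1 replicate 4 a term of its own. It is therefore not a separate setting from leaving that library out.

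Of 25884 genes tested, 1425 (5.51%) passed an adjusted p of 0.05 in edgeR's quasi-likelihood test with Benjamini-Hochberg adjustment. Among them, 582 (2.25% of those tested) were higher in PAX6-/- cells and 843 (3.26%) were lower. The called changes were large, and the threshold itself selects for large changes. The median absolute size among called genes was 1.76 on the log2 scale for those that rose and 1.70 for those that fell. By 4 or more, 32 rose and 62 fell. The signed median over all genes, in which rises and falls cancel, was 0.03 and is not a measure of size. The 3 PAX6-/- libraries and the 2 WT libraries did not overlap for 582 of the 582 genes that rose and 842 of the 843 that fell, against 48.5% of all genes tested. The test that called these genes used the same 5 libraries. The lack of overlap was thus largely set by the selection and adds no support. The count of called genes moved with single libraries. It was 504, 997 and 554 without PAX6-/- replicate 1, 2 or 3, 276 and 279 without WT replicate 1 or 3 (which leaves 1 WT library, assumed to vary like the other groups), and 2334 and 2880 without PAX6-/- with ISL1 replicate 3 or PDX1-/- with ISL1 replicate 4.

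**Figure D1:**
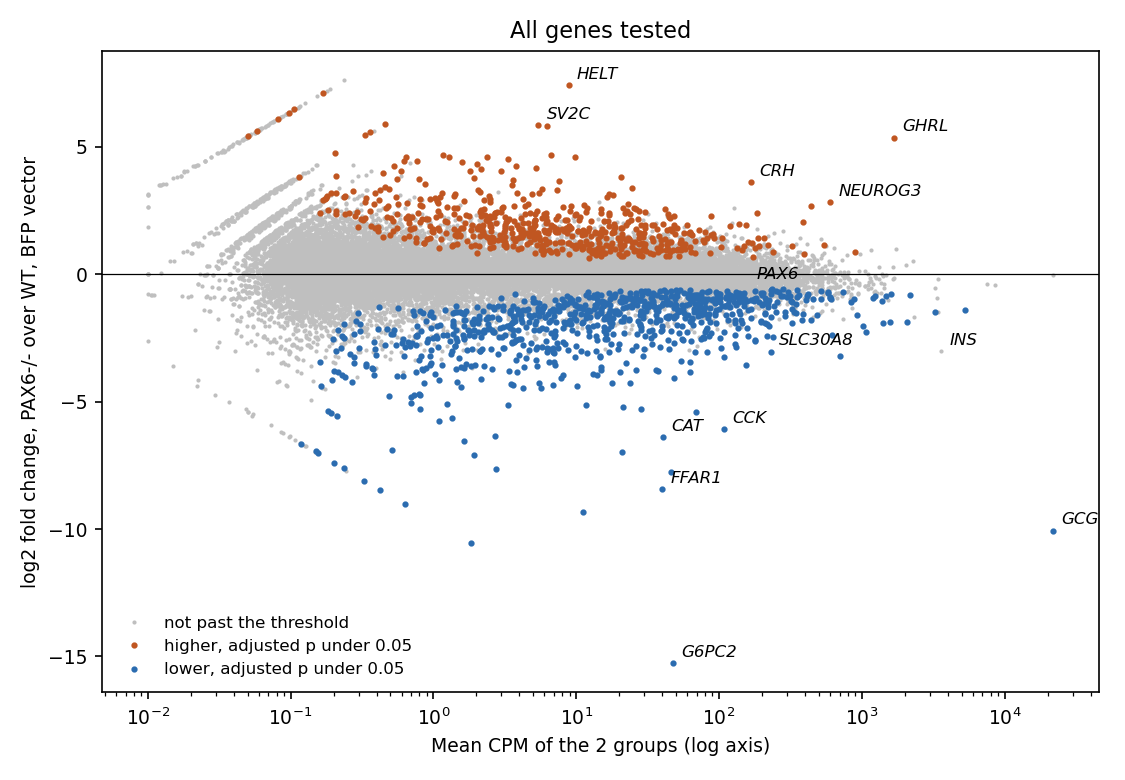
Each point is 1 of the 25884 genes tested; the x axis is its mean CPM over the 2 groups (log axis) and the y axis its fitted log2 fold change, PAX6-/- over WT with the BFP vector. GCG and G6PC2 lie furthest below 0 among abundant genes (the fitted value of G6PC2, with 0 counts in PAX6-/-, depends on the prior count), HELT and GHRL lie high above it, and INS and PAX6 are grey, not past the threshold.

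Glucagon RNA and that of several other hormones fell steeply. Of 20 islet and gut hormone genes, 10 fell, 2 rose and 8 did not pass (60% called, against 5.51% of all genes tested). The median log2 fold change was -3.22. GCG, which encodes glucagon and GLP-1, was at 29.1, 15.7 and 77.9 CPM in the PAX6-/- libraries and 36246 and 51317 CPM in the WT libraries. All PAX6-/- libraries thus lay under 100 CPM in place of the most abundant islet hormone RNA of the WT cells, 1071-fold lower by the means (log2 fold change -10.06, SE 1.21, adjusted p = 1.51e-04). In bulk libraries, fewer cells of a type and less RNA per cell cannot be told apart. SST, the somatostatin gene of delta cells, was at 10.9, 4.66 and 16.7 CPM in the PAX6-/- libraries and 92.7 and 138 CPM in the WT libraries (log2 fold change -3.43, SE 0.85, adjusted p = 0.0251). PPY, which encodes pancreatic polypeptide, was at 0.0207, 0.0357 and 0.0946 CPM in the PAX6-/- libraries and 1.47 and 3.84 CPM in the WT libraries (log2 fold change -5.64, SE 1.13, adjusted p = 0.00807), near the floor of detection in the PAX6-/- cells. IAPP, which encodes the amylin co-released with insulin, was at 0.332, 0.286 and 0.473 CPM in the PAX6-/- libraries and 8.24 and 7.92 CPM in the WT libraries (log2 fold change -4.47, SE 0.92, adjusted p = 0.00896).

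Several gut hormone genes fell as well. PYY, the peptide YY of distal gut L cells, was at 0.415, 0.25 and 0.586 CPM in the PAX6-/- libraries and 99.9 and 83.7 CPM in the WT libraries (log2 fold change -7.78, SE 1.08, adjusted p = 5.76e-04). GIP, the incretin of K cells, was at 0.353, 0.321 and 0.303 CPM in the PAX6-/- libraries and 30.9 and 52.3 CPM in the WT libraries (log2 fold change -6.99, SE 1.15, adjusted p = 0.00218). CCK (cholecystokinin) was at 3.05, 3.5 and 2.99 CPM in the PAX6-/- libraries and 286 and 139.5 CPM in the WT libraries (log2 fold change -6.06, SE 1.02, adjusted p = 0.00243). Of these 3 genes, no PAX6-/- library reached 4 CPM and no WT library was under 30 CPM. GAST (gastrin) fell from a mean of 283 to 24.1 CPM (log2 fold change -3.56, SE 0.93, adjusted p = 0.0322). The other 2 that fell were UCN3 and GNRH2, with log2 fold changes of -5.74 and -3.97 (adjusted p = 0.0157 and 0.0177). The PAX6-/- counts of UCN3 were all at or under 3, and against that floor the gene was at least 37.5-fold lower.

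Insulin RNA was lower in each PAX6-/- library than in each WT library but did not pass the threshold. INS was at 938, 803 and 636 CPM in the PAX6-/- libraries and 7185 and 5651 CPM in the WT libraries, 8.1-fold lower by the means, and its adjusted p was 0.081 (log2 fold change -3.02, SE 0.97). The estimate hardly moved between settings, while the p did. It was 0.0308 with DESeq2, 5.42e-06 with limma voom, 2.46e-04 with only the groups compared, and 0.00606 with no filter on low counts. It was 5.72e-04 with the replicate block by description number, 1.68e-04 without PDX1-/- with ISL1 replicate 4 and 4.99e-07 without both libraries of high mitochondrial share. INS did not pass, at 0.174 to 0.294, when 1 of the 5 compared libraries was left out. The block by description number is not a separate setting from leaving out PDX1-/- with ISL1 replicate 4, which alone carries its number. INS shares exons with the readthrough gene INS-IGF2, and how reads over both were assigned is not stated.

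The 2 hormone genes that rose were GHRL and CRH. GHRL, which encodes ghrelin, was at 3481, 2519 and 3773 CPM in the PAX6-/- libraries and 74.5 and 83.6 CPM in the WT libraries, a rise of 41.2-fold (log2 fold change 5.36, SE 0.75, adjusted p = 6.27e-04). No WT library came within 2000 CPM of a PAX6-/- library. GHRL overlaps the antisense gene GHRLOS, and no source used here says whether reads were counted by strand, so the 2 cannot be fully separated. CRH, the corticotropin-releasing hormone best known from the hypothalamus, was at 319.6, 228 and 383 CPM in the PAX6-/- libraries and 24 and 26.1 CPM in the WT libraries (log2 fold change 3.63, SE 0.90, adjusted p = 0.0257). Per kb of exon, GCG (18411 CPM per kb) and INS (9783) were the highest hormones in WT cells, and GHRL (1571), INS (1208) and CRH (241) in PAX6-/- cells. NPY, VIP, SCT, NTS, MLN, TAC1 and ADCYAP1 did not pass, with log2 fold changes from -1.49 to 7.29, the last from a gene with 0 counts in WT.

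GCG, PYY, GIP, CCK and GHRL kept their call without any one of the 5 libraries. The others did not: without a PAX6-/- or WT library the adjusted p reached 0.153 for SST, 0.201 for GAST, 0.19 for GNRH2 (kept only without WT replicate 1) and 0.117 for UCN3 (kept only without WT replicate 3). CRH kept its call only without PAX6-/- replicate 2 and otherwise reached 0.219. PPY was lost without WT replicate 3 (adjusted p = 0.0838) and IAPP without PAX6-/- replicate 1 (0.0516). In each of these 5 fits fewer hormone genes fell, and fewer genes were called over all genes tested. Without 1 PAX6-/- library, 1 or 2 hormone genes rose and 5 or 6 fell, while 504 to 997 of all genes tested were called in place of 1425.

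**Figure D2:**
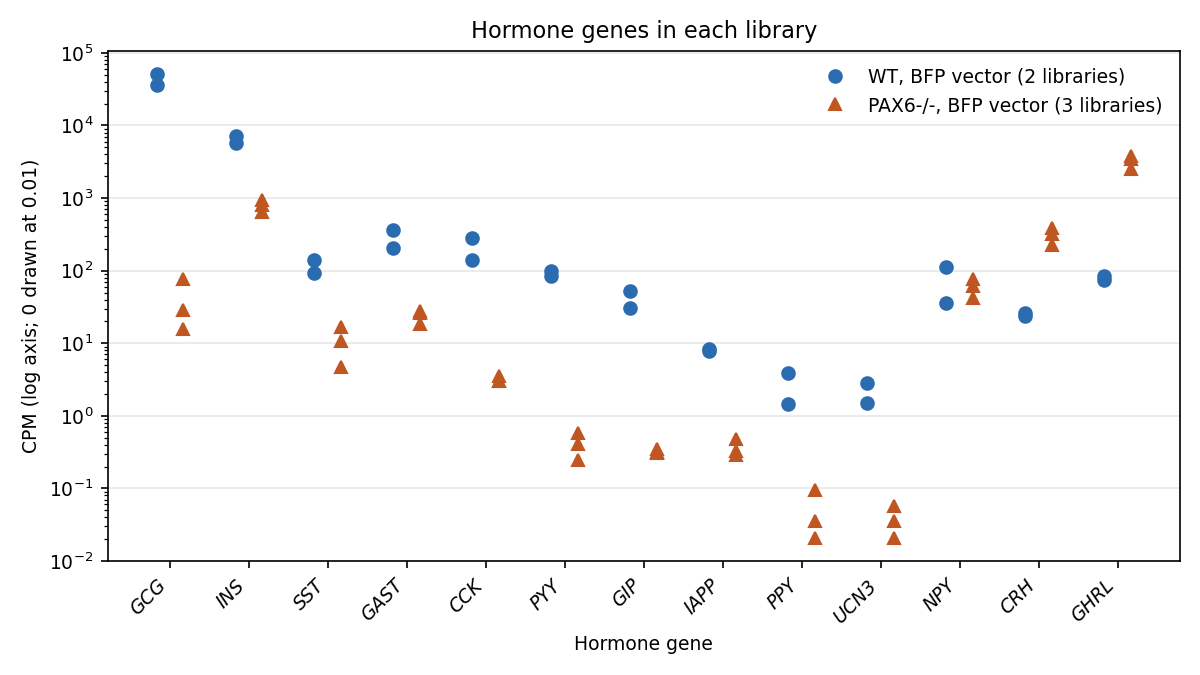
CPM on a log axis for 13 hormone genes (x axis) in each library; circles are the 2 WT libraries and triangles the 3 PAX6-/- libraries, all with the BFP vector. Triangles lie below circles for every gene from GCG to UCN3, the 2 groups overlap for NPY, and triangles lie above circles for CRH and GHRL.

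The promoters of 4 genes are shown because these genes carry the main changes: GCG and G6PC2, the deepest falls at high WT level, GHRL, the largest rise of an abundant transcript, and CAT, the gene with the lowest p. The sequences are the 250 bases before the RefSeq start (GRCh38.p14), 5′ to 3′ on the gene's strand, in lower case. Capitals mark TATAAA, the TATA box letters, and TTCANGC, letters from the core of the site that the PAX6 paired domain is known to bind, each on either strand.
GCG, chr2:162152248-162152497, minus strand: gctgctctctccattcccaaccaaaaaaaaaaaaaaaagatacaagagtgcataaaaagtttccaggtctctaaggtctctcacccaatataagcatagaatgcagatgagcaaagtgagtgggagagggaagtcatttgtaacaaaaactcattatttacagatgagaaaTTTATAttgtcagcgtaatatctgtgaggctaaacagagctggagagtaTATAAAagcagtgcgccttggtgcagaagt
G6PC2, chr2:168901041-168901290, plus strand: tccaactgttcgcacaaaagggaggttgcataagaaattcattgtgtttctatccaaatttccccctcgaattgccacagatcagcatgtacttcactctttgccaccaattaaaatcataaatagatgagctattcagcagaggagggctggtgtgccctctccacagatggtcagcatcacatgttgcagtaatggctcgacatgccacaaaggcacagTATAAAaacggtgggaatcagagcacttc
GHRL, chr3:10292948-10293197, minus strand: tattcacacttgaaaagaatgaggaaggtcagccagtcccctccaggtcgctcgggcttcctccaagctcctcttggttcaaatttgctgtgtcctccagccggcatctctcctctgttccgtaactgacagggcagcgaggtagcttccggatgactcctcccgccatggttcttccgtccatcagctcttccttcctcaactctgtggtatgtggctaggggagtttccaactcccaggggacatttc
CAT, chr11:34438684-34438933, plus strand: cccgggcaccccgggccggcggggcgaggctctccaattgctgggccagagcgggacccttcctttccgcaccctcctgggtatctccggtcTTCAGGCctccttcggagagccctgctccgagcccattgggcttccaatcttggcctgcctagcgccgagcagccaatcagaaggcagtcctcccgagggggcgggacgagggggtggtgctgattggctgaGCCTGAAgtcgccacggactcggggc
GCG and G6PC2 have TATAAA starting 30 and 29 bases before the start, on the gene's strand, and GCG has a further match on the opposite strand 79 bases before it. CAT holds TTCANGC 158 bases before the start on its own strand and 26 bases before it on the opposite strand; the GHRL window holds neither motif. TTCANGC occurs in 8.39% of the 35116 RefSeq windows of this length. Counted by gene, with a match in any of its windows, it occurs for 9.8% of the 14731 tested genes with a window. The share by gene was 9.84% of the 610 that fell and 9.24% of the 368 that rose. TATAAA occurs in 10.7% of all windows and, by gene, for 9.63%, 17.4% and 12% of tested, fallen and risen genes with a window. Shares by window and by gene are different measures. The 2 motifs share no overlapping match in the windows shown. A match of letters is a description and not a bound site, and the absence of a match says only that the letters are not in the window.

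Genes of beta cell function fell more often than they rose. Of 20 beta cell genes tested, 9 fell and 1 rose (50% called, against 5.51% of all genes tested), with a median of -1.20. G6PC2 (ENSG00000152254, chromosome 2, 168901291 to 168910000), the islet glucose-6-phosphatase that opposes glucokinase, had 0 counts in all 3 PAX6-/- libraries and was at 87.6 and 104 CPM in WT. Against a floor of 3 counts per library it was at least 1662-fold lower (adjusted p = 1.32e-04). CASR, the calcium-sensing receptor, was at 3.86, 1.8 and 4.01 CPM in the PAX6-/- libraries and 151 and 119 CPM in the WT libraries (log2 fold change -5.39, SE 0.64, adjusted p = 1.43e-04). ERO1B, which re-oxidises the enzyme that forms disulfide bonds of proinsulin, was at 169, 99.8 and 141 CPM in the PAX6-/- libraries and 1105 and 1448 CPM in the WT libraries, 9.36-fold lower (log2 fold change -3.23, SE 0.29, adjusted p = 6.86e-06). The surface ecto-nucleotidase ENTPD3 was at 0.353, 0.464 and 0.189 CPM in the PAX6-/- libraries and 5.52 and 7.83 CPM in the WT libraries (log2 fold change -4.30, SE 0.64, adjusted p = 0.00102). The zinc transporter of insulin granules, SLC30A8, is counted in the exocytosis and zinc list and not among these 9. It was among the 5 genes of lowest p, at 63.7, 35.4 and 50.5 CPM in the PAX6-/- libraries and 376 and 442 CPM in the WT libraries (log2 fold change -3.04, SE 0.27, adjusted p = 6.86e-06). All 5 kept their calls without any one of the libraries compared.

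The glucose transporter SLC2A2 fell to 2.28, 6 and 5.67 CPM from 25.7 and 29.1 in WT (log2 fold change -2.56, SE 0.49, adjusted p = 0.0062), a call lost without WT replicate 3 (adjusted p = 0.0529). NPTX2 fell with a log2 fold change of -1.51 (adjusted p = 0.00243). RBP4, HADH and PFKFB2 made up the rest of the 9, with log2 fold changes of -2.58, -1.16 and -1.43 (adjusted p = 0.034, 0.0282 and 0.0126); each lost its call without PAX6-/- replicate 3 and without either WT library, RBP4 and HADH also without PAX6-/- replicate 1 and RBP4 also without replicate 2 (adjusted p at most 0.229). SYT13, a synaptotagmin, was the member that rose, from 47.9 and 51.2 CPM in WT to 159.7, 113 and 129 CPM (log2 fold change 1.43, SE 0.22, adjusted p = 0.00126). NPTX2 and SYT13 held without any one library. The defining beta cell transcription factors did not pass: NKX6-1 was at 153, 87.8 and 143 CPM in the PAX6-/- libraries and 46 and 79.6 CPM in the WT libraries (log2 fold change 1.03, SE 0.38, adjusted p = 0.13), and MAFA stayed under 3 CPM in every library (adjusted p = 0.544).

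Among 23 genes of glucose handling and of the channels of insulin release, 3 fell and 3 rose (26.1% called, against 5.51% of all genes tested). Among those that fell, GCKR, the glucokinase regulatory protein, went from 3.25 and 3.23 to 1.16, 0.732 and 0.7 CPM (log2 fold change -1.91, SE 0.31, adjusted p = 0.00199), and the glucose transporter SLC2A3 fell by 1.29 on the log2 scale (adjusted p = 0.00271). Among those that rose were the sodium channel SCN3A (log2 fold change 2.40) and the glucose transporter SLC2A1 (0.86), with adjusted p of 0.00916 and 0.0243. The calls for GCKR and SLC2A3 held without any one library. Those for SCN3A and SLC2A1 were lost without WT replicate 1 or WT replicate 3, and SLC2A1 also without PAX6-/- replicate 1 or 3 (adjusted p at most 0.27). The subunits of the ATP-sensitive potassium channel did not pass (KCNJ11 -0.45, adjusted p = 0.237; ABCC8 -0.74, adjusted p = 0.171).

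Beside the fall of glucagon RNA, some genes of the alpha cell list fell. Liver and intestine markers fell too (7 of 11, given below), and their part in these falls was not tested. Of 20 alpha cell genes, none rose and 6 fell (30% called, against 5.51% of all genes tested), with a median of -0.52. The transcription factor gene IRX2 was at 48.8, 35.7 and 61.8 CPM in the PAX6-/- libraries and 47.8 and 55 CPM in the WT libraries (log2 fold change -0.08, SE 0.33, adjusted p = 0.945), and its libraries overlapped between the groups. The members that fell included GC, DPP4, TM4SF4, SERPINA1 and PLCE1, led by the vitamin D-binding protein gene GC at 10.7, 12.2 and 8.55 CPM in the PAX6-/- libraries and 111 and 47.2 CPM in the WT libraries (log2 fold change -2.91, SE 0.59, adjusted p = 0.00873). DPP4, the protease that inactivates incretins, was at 293, 456 and 349 CPM in the PAX6-/- libraries and 1787 and 1744 CPM in the WT libraries (log2 fold change -2.27, SE 0.57, adjusted p = 0.0275). None of these 5 calls held in every fit that left out 1 library: GC was lost without PAX6-/- replicate 3 or WT replicate 1, SERPINA1 without PAX6-/- replicate 1 or either WT library, and DPP4, TM4SF4 and PLCE1 without any one of the 5 libraries (adjusted p at most 0.197). In each of the 5 fits fewer alpha cell genes fell, and fewer genes were called over all genes tested. Without 1 PAX6-/- library, 1 or 2 alpha cell genes fell, while 504 to 997 of all genes tested were called in place of 1425.

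In the list for delta and epsilon cells, 3 of 18 genes rose and 2 fell (27.8% called, against 5.51% of all genes tested). MBOAT4, the enzyme that attaches the fatty acid to ghrelin, was at 11.8, 6.71 and 10.4 CPM in the PAX6-/- libraries and 3.38 and 2.81 CPM in the WT libraries (log2 fold change 1.63, SE 0.37, adjusted p = 0.0149). ACSL1, a long-chain acyl-CoA synthetase, was at 899, 552 and 849.7 CPM in the PAX6-/- libraries and 113 and 124 CPM in the WT libraries, 6.48-fold higher (adjusted p = 0.0121), and the fatty acid receptor FFAR4 rose from 2.2 and 4.11 to 15.6, 10.1 and 15.3 CPM (log2 fold change 2.12, SE 0.58, adjusted p = 0.0393). HHEX, the transcription factor that maintains delta cells, fell from 26.3 and 27.9 to 5.91, 7.57 and 9 CPM (log2 fold change -1.85, SE 0.31, adjusted p = 0.00243), and VTN (vitronectin) fell with a log2 fold change of -1.49 (adjusted p = 0.0307). The call for HHEX held without any one library. ACSL1 was lost without either WT library (0.149), MBOAT4 and FFAR4 without PAX6-/- replicate 1 or 3 or either WT library (0.177 and 0.35 at most) and VTN without any one of the 5 (0.22 at most). Serotonin-making enterochromaffin cells arise in these differentiations beside islet cells. The called share of their genes was 23.1%. Of 13 of their genes, SLC18A1 and CBLN1 rose (log2 fold change 1.89 and 1.39, adjusted p = 0.0322 and 0.0175, both lost without PAX6-/- replicate 1 or 3 or either WT library, up to 0.32), and the serotonin transporter SLC6A4 fell from 28.1 and 17.7 to 0.456, 1.07 and 0.397 CPM (log2 fold change -5.15, SE 0.62, adjusted p = 1.56e-04), a call that held in all 5 fits. TPH1, which makes serotonin, was at 148, 94.1 and 145 CPM in the PAX6-/- libraries and 29.2 and 56.6 CPM in the WT libraries without passing (log2 fold change 1.59, SE 0.53, adjusted p = 0.0934), and LMX1A did not pass (adjusted p = 0.252).

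Transcription factors of the endocrine lineage were higher more often than lower. Of 21 tested, 7 rose and 1 fell (38.1% called, against 5.51% of all genes tested), with a median of 0.77. NEUROG3, the factor that starts endocrine differentiation, was at 1124, 752 and 1274 CPM in the PAX6-/- libraries and 117 and 178 CPM in the WT libraries, 7.12-fold higher (log2 fold change 2.83, SE 0.39, adjusted p = 4.68e-04), with no overlap. NKX2-2 was at 57.6, 41 and 69.7 CPM in the PAX6-/- libraries and 10.6 and 18.5 CPM in the WT libraries (log2 fold change 1.95, SE 0.46, adjusted p = 0.0188). The others that rose were ST18, LMX1B, SCRT1, SOX4 and SOX11, with log2 fold changes of 1.49, 1.55, 2.39, 0.81 and 0.77 (adjusted p = 0.00969, 0.0412, 0.0213, 0.0185 and 0.0251); SCRT1 stayed under 1 CPM in every library. The member that fell was ETV1 (log2 fold change -1.32, SE 0.25, adjusted p = 0.00501). NEUROD1, which acts after NEUROG3, was at 726, 466 and 776 CPM in the PAX6-/- libraries and 766 and 1103 CPM in the WT libraries without passing (log2 fold change -0.51, SE 0.42, adjusted p = 0.584). PAX4, the paralog that represses the alpha cell program in mice, was at 210.5, 168 and 241 CPM in the PAX6-/- libraries and 68.5 and 120.5 CPM in the WT libraries (log2 fold change 1.13, SE 0.30, adjusted p = 0.0355). NEUROG3 kept its call without any one library. ETV1 was lost without WT replicate 3 (0.103), ST18 without either WT library (0.15 at most), SOX11 without PAX6-/- replicate 1 or 2 or either WT library (0.238), and NKX2-2, LMX1B, SCRT1, SOX4 and PAX4 without PAX6-/- replicate 1 or 3 or either WT library (0.406 at most). In each of the 5 fits fewer of the 21 rose, and fewer genes were called over all genes tested. Without 1 PAX6-/- library, 2 to 6 of the 21 rose, while 504 to 997 of all genes tested were called in place of 1425.

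HELT and SV2C, genes best known from the nervous system, had the largest rises among called genes at 10 CPM or more in the higher group whose libraries did not overlap. HELT, a basic helix-loop-helix factor of midbrain neurons, was at 18.4, 13.2 and 21.2 CPM in the PAX6-/- libraries and 0.154 and 0.0302 CPM in the WT libraries (log2 fold change 7.44, SE 1.15, adjusted p = 0.00133). SOX2, a factor of neural and foregut progenitors, was at 41.1, 29.7 and 50.3 CPM in the PAX6-/- libraries and 4.4 and 7.59 CPM in the WT libraries (log2 fold change 2.75, SE 0.49, adjusted p = 0.00354), and DLX5 rose with a log2 fold change of 2.75 (adjusted p = 0.0421); these 3 were the only called members of 18 pancreatic progenitor and neural factors, and none fell. SV2C, a synaptic vesicle glycoprotein, was at 12.7, 8.09 and 11.3 CPM in the PAX6-/- libraries and 0.11 and 0.272 CPM in the WT libraries (log2 fold change 5.84, SE 0.73, adjusted p = 2.05e-04), and its paralog SV2B was at 57.3, 32.7 and 49.9 CPM in the PAX6-/- libraries and 8.42 and 8.01 CPM in the WT libraries (log2 fold change 2.50, SE 0.53, adjusted p = 0.0108). With CPLX1 and CPLX2 (complexins, which clamp vesicle fusion; log2 fold change 0.83 and 1.45, adjusted p = 0.0498 and 0.0294), 4 of 25 exocytosis and zinc genes rose, and SLC30A8 was the 1 that fell. Among markers of neurons and muscle, RBFOX3 and TUBB3 rose (log2 fold change 1.96 and 1.93, adjusted p = 0.029 and 0.0161), 2 of 12, while the neuronal gene STMN2 did not pass (365, 218 and 423 CPM in the PAX6-/- libraries and 181 and 305 CPM in the WT libraries) and the muscle gene TNNT2 was under 2 CPM in every library. The called share was 16.7% for the progenitor and neural factors and 16.7% for the neuron and muscle markers. It was 20% for the exocytosis and zinc genes, against 5.51% of all genes tested. HELT and SV2C kept their calls without any one library. SOX2 was lost without WT replicate 1 (0.0926), SV2B without either WT library (0.131), TUBB3 without those or PAX6-/- replicate 3 (0.168), and DLX5, CPLX1, CPLX2 and RBFOX3 without PAX6-/- replicate 1 or 3 or either WT library (0.379 at most).

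Of 25 islet receptors, 3 fell and 2 rose (20% called, against 5.51% of all genes tested). FFAR1, the receptor through which fatty acids amplify insulin release, was at 0.104, 0.464 and 0.113 CPM in the PAX6-/- libraries and 75.4 and 84.5 CPM in the WT libraries (log2 fold change -8.42, SE 0.84, adjusted p = 2.43e-05). GPR119, a receptor for lipid amides, was at 36.1, 27.9 and 37.7 CPM in the PAX6-/- libraries and 199 and 249 CPM in the WT libraries (log2 fold change -2.72, SE 0.27, adjusted p = 2.35e-05). PTGER3, a prostaglandin E2 receptor, was at 10.4, 6.02 and 8.32 CPM in the PAX6-/- libraries and 104 and 130.3 CPM in the WT libraries (log2 fold change -3.83, SE 0.34, adjusted p = 6.86e-06). These were the 3 that fell, and all 3 calls held without any one library. PROKR1 and NPY1R rose (log2 fold change 3.17 and 1.64, adjusted p = 0.0291 and 0.0213), calls that were lost without PAX6-/- replicate 1 or 3 or either WT library (0.263 at most). The incretin receptor GLP1R was at 64.1, 50.2 and 61.4 CPM in the PAX6-/- libraries and 50.1 and 55 CPM in the WT libraries (log2 fold change 0.16, SE 0.43, adjusted p = 0.907).

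Of the other genes among the 12 largest rises, BMPER changed most. BMPER, a secreted regulator of bone morphogenetic proteins, was at 14, 10.1 and 12.9 CPM in the PAX6-/- libraries and 0.0879 and 0.363 CPM in the WT libraries (log2 fold change 5.84, SE 1.01, adjusted p = 0.00302), and BMP2 fell from 196 and 238 to 39.6, 48.1 and 37.8 CPM (log2 fold change -2.37, SE 0.41, adjusted p = 0.00271). Of 30 genes of BMP, WNT and Notch signalling, 2 rose and 3 fell, the others being HES6 (1.25, adjusted p = 0.0398), ID3 (-2.43, 0.0377) and GREM1 (-3.67, 0.0194). The called share was 16.7% here and 10.5% for the 38 adhesion and axon guidance genes given below. Over all genes tested it was 5.51%, with 2.25% higher and 3.26% lower. ARHGAP36 was at 20.7, 10.9 and 25.1 CPM in the PAX6-/- libraries and 0.725 and 0.816 CPM in the WT libraries (log2 fold change 4.62, SE 0.59, adjusted p = 2.30e-04). The adhesion molecule KIRREL3 was at 16.5, 10.1 and 11.7 CPM in the PAX6-/- libraries and 0.352 and 0.665 CPM in the WT libraries (log2 fold change 4.66, SE 0.57, adjusted p = 1.56e-04), and the cytokine receptor subunit IL20RA was at 49.4, 44.8 and 41.3 CPM in the PAX6-/- libraries and 4.81 and 3.72 CPM in the WT libraries (log2 fold change 3.40, SE 0.45, adjusted p = 3.44e-04). Collagen XII (COL12A1), TMEM132C, the receptor tyrosine kinase ROS1 and the histamine receptor HRH1 completed the 12 largest rises, with log2 fold changes of 3.82, 3.68, 3.34 and 3.30 (adjusted p = 0.00449, 0.0106, 0.00998 and 0.00873). BMP2, ARHGAP36, KIRREL3 and IL20RA kept their calls without any one library. BMPER was lost without WT replicate 1 (0.0808), COL12A1, TMEM132C, ROS1 and HRH1 without either WT library (0.152 at most), HES6 and GREM1 without those or PAX6-/- replicate 1 or 3 (0.333 at most), and ID3 without any one library (0.192 at most). Of 38 adhesion and axon guidance genes, EPHA4, EPHA5 and UNC5D rose (log2 fold change 0.99, 2.50 and 1.57, adjusted p = 0.019, 0.0366 and 0.00676) and CNTN5 fell (-2.35, 0.0177); all 4 were lost without WT replicate 1, EPHA5, UNC5D and CNTN5 also without WT replicate 3, and EPHA4, EPHA5 and CNTN5 also without PAX6-/- replicate 1 and EPHA5 and CNTN5 also without PAX6-/- replicate 3 (adjusted p at most 0.299).

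Catalase gave the lowest p of all genes. CAT (ENSG00000121691, chromosome 11, 34438934 to 34472060, plus strand), which breaks down hydrogen peroxide, was at 1.06, 0.75 and 1.02 CPM in the PAX6-/- libraries and 74.4 and 84.9 CPM in the WT libraries, 84.5-fold lower (log2 fold change -6.40, SE 0.39, adjusted p = 1.03e-07). CAT lies 2621 kb from PAX6 on the same chromosome. Within 3 Mb of PAX6, 27 protein-coding genes were tested and 3 were called, all lower (11.1%, against 5.51% of all genes), with a median of -0.02. The other 2, LMO2 and DEPDC7, were chosen after their values were seen. LMO2, a transcriptional co-factor at chromosome 11, 33858576 to 33892076, was at 1.85, 1.91 and 3.39 CPM in the PAX6-/- libraries and 39.5 and 51.3 CPM in the WT libraries (log2 fold change -4.25, SE 0.47, adjusted p = 7.79e-05), and DEPDC7, at chromosome 11, 33015876 to 33033582, fell from 77.2 and 101 to 21.9, 30.3 and 28.4 CPM (log2 fold change -1.73, SE 0.46, adjusted p = 0.0367). CAT and LMO2 kept their calls without any one library, and DEPDC7 lost its call without any one of the 5 (adjusted p up to 0.248).

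The other genes of lowest p and largest fall were also lower in each PAX6-/- library, which the rule for the largest falls requires. SCIN (scinderin, which severs actin filaments) was at 0.913, 0.768 and 1.12 CPM in the PAX6-/- libraries and 13.9 and 24.9 CPM in the WT libraries (log2 fold change -4.37, SE 0.34, adjusted p = 2.12e-06). CSGALNACT1, an enzyme of chondroitin sulfate synthesis, was at 3.26, 3.55 and 4.2 CPM in the PAX6-/- libraries and 34.2 and 63.9 CPM in the WT libraries (log2 fold change -3.74, SE 0.32, adjusted p = 6.16e-06), and C3orf80 was at 18.3, 18.2 and 15.9 CPM in the PAX6-/- libraries and 77.4 and 96.9 CPM in the WT libraries (log2 fold change -2.32, SE 0.18, adjusted p = 2.12e-06). NKAIN4 and TMEM236 had log2 fold changes of -5.27 and -5.22 (adjusted p = 0.00102 and 6.90e-05). The long non-coding RNA LINC02864 was at 0.104, 0 and 0 CPM in the PAX6-/- libraries and 21.1 and 23.7 CPM in the WT libraries (adjusted p = 0.00989), a call lost without PAX6-/- replicate 3 (0.0559); the other 5 held without any one library.

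The called shares of the general secretory and cell cycle lists are set beside the 5.51% of all genes tested. The share was 7.14% for prohormone processing and granins and 8.33% for interferon response. It was 28.6% for protein folding and stress in the endoplasmic reticulum and 0% for the cell cycle. Of 14 prohormone processing and granin genes, 1 fell, SCG5 (log2 fold change -2.37, SE 0.54, adjusted p = 0.0167; up to 0.133 and lost without any one library). The convertases PCSK1 and PCSK2 did not pass (adjusted p = 0.135 and 0.988), PCSK1 at 259.9, 148 and 224 CPM in the PAX6-/- libraries and 67.3 and 89 CPM in the WT libraries. None of 16 cell cycle genes, 14 gut and stomach transcription factors or 12 housekeeping genes passed in edgeR, with medians of -0.05, 0.50 and -0.27. At an unadjusted p under 0.05 the counts were 0, 6 and 1, with DESeq2 0, 2 and 1, and with limma voom 1, 7 and 4. Of 14 genes of protein folding and stress in the endoplasmic reticulum, 4 fell and none rose: the chaperone HSPA5 was at 1578, 1523 and 1639 CPM in the PAX6-/- libraries and 2661 and 2837 CPM in the WT libraries (log2 fold change -0.80, SE 0.16, adjusted p = 0.00689), and HSP90B1, PDIA6 and HERPUD1 had log2 fold changes of -0.84, -0.98 and -0.78 (adjusted p = 0.00638, 0.00866 and 0.0404). The median of the 14 was -0.80, but none of the 4 passed without WT replicate 1 or without WT replicate 3 (adjusted p at most 0.113 for the first 3), and HERPUD1 was lost without any one library (at most 0.253). Of 12 interferon response genes 1 fell, IFIT3 (-1.54, adjusted p = 0.0175, up to 0.12 and lost without PAX6-/- replicate 1 or 3 or either WT library).

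Markers of other cell types differed between the groups and are given beside the falls above. Of 11 liver and intestine markers, 7 fell and none rose (63.6% called, against 5.51% of all genes tested), with a median of -1.74. Their summed level was 5305 to 7251 CPM in the PAX6-/- libraries and 15242 to 17332 CPM in the WT libraries. AFP (alpha-fetoprotein) was at 1443, 1767 and 1936 CPM in the PAX6-/- libraries and 4266 and 5417 CPM in the WT libraries (log2 fold change -1.50, SE 0.38, adjusted p = 0.0267), ALB (albumin) at 16.1, 30.9 and 23.9 CPM in the PAX6-/- libraries and 159.8 and 108 CPM in the WT libraries (log2 fold change -2.50, SE 0.43, adjusted p = 0.00276), and the intestinal keratin KRT20 at 0.124, 0 and 0.0189 CPM in the PAX6-/- libraries and 1.45 and 1.24 CPM in the WT libraries (log2 fold change -4.82, SE 0.88, adjusted p = 0.00425). The other falls were FGB, TF, CDH17 and LGALS4, with log2 fold changes of -1.41, -1.09, -2.57 and -3.74 (adjusted p = 0.0301, 0.0283, 0.0488 and 0.0159). CDX2, the defining intestinal factor, was at 69.9, 107 and 73.5 CPM in the PAX6-/- libraries and 123 and 115 CPM in the WT libraries without passing (log2 fold change -0.51, SE 0.43, adjusted p = 0.6). ALB and KRT20 held without any one library. The others did not: AFP was lost without any one library, FGB, CDH17 and LGALS4 without PAX6-/- replicate 1 or 3 or either WT library, and TF without PAX6-/- replicate 1 or 2 or WT replicate 3, with adjusted p at most 0.476, and 2 to 5 of the 11 fell in the 5 fits. The part of these cells in the falls of the hormone, alpha cell, beta cell and delta cell genes was not tested. In each of the 5 fits, fewer genes were also called over all genes tested.

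Of 12 duct and acinar markers, ANXA4 and SPP1 fell (log2 fold change -1.35 and -1.50, adjusted p = 7.69e-04 and 0.011; SPP1 was lost without PAX6-/- replicate 1 or 3 or WT replicate 1, up to 0.173), with a summed level of 1564 to 1959 CPM in the PAX6-/- libraries and 1835 to 1880.0 CPM in the WT libraries. KRT19 (duct) and CPA1 (acinar) did not pass (adjusted p = 0.769 and 0.673). The called share was 16.7% for duct and acinar markers and 16.7% for the mesenchyme and endothelium markers given next. For the pluripotency genes it was 33.3%, against 5.51% of all genes tested. Of 12 mesenchyme and endothelium markers, KDR and PECAM1 fell (log2 fold change -3.01 and -5.56, adjusted p = 0.00505 and 0.019; KDR was lost without WT replicate 1, 0.0692, and PECAM1 without any one library, up to 0.125). Their summed level was 200.1 to 941 CPM in the PAX6-/- libraries and 236 to 1268 CPM in the WT libraries, and it varied within the groups: the collagen COL3A1 was at 89.4, 543 and 581 CPM in the PAX6-/- libraries and 820.2 and 124 CPM in the WT libraries, so the spread inside each group was as wide as the gap between them. Of 6 pluripotency genes tested, PRDM14 rose from 3.23 and 4.2 to 39.2, 24.2 and 33.3 CPM (log2 fold change 3.12, SE 0.71, adjusted p = 0.0161) and DPPA4 fell (log2 fold change -2.10, SE 0.59, adjusted p = 0.0468). PRDM14 was lost without PAX6-/- replicate 1 or either WT library (0.187) and DPPA4 without any one library (0.451 at most).

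**Figure D3:**
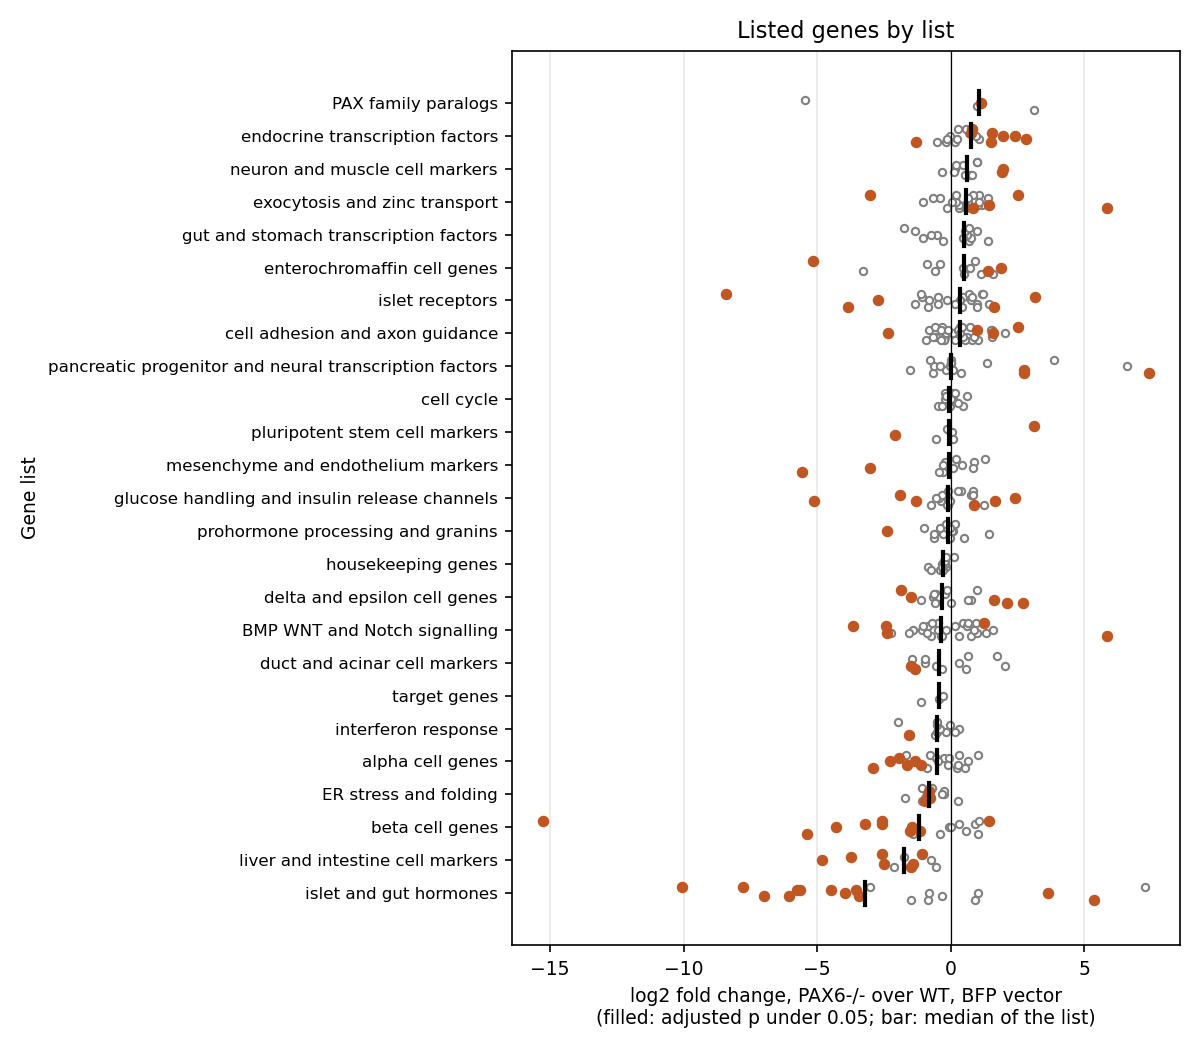
Each point is 1 tested gene of the list named on the y axis, and the x axis is its log2 fold change, PAX6-/- over WT with the BFP vector; filled points have an adjusted p under 0.05, open points do not, and the bar is the median of the list. The hormone list has the lowest median (-3.22), with points on both sides of 0, while the cell cycle and housekeeping lists hold no filled point.

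The same genotypes were also measured with the ISL1 vector, in 3 and 2 libraries that the BFP comparison does not use. Here 922 of 25884 genes passed (3.56%), 327 higher (1.26%) and 595 lower (2.3%). With upper quartile scaling, which moved the median over all genes from 0.13 to 0.30, 52.6% of the called genes were higher in place of 35.5%. Of the 1425 genes called with BFP, 534 were also called with ISL1, all in the same direction; they make up 37.5% of the BFP list and 57.9% of the ISL1 list. A further reading by sign gave 1394 of 1425 (97.8%) with the same sign, against 64.9% of all genes tested. Among the genes that rose with BFP, the median log2 fold change was 1.76 with BFP and 1.02 with ISL1, and among those that fell it was -1.70 and -1.28; the BFP values are those that picked the genes. The count with the ISL1 vector was 182 and 241 without WT with ISL1 replicate 1 or 2, and 1853 without PDX1-/- with ISL1 replicate 4.

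GHRL was at 2481, 1933 and 15335 CPM in PAX6-/- with ISL1 and 126 and 129 CPM in WT with ISL1 (log2 fold change 5.69, SE 0.76, adjusted p = 4.57e-04). GCG was at 32, 28.1 and 339 CPM in PAX6-/- and 34367 and 31162 CPM in WT (log2 fold change -7.95, SE 1.11, adjusted p = 6.54e-04). The third PAX6-/- library with ISL1, which has the high mitochondrial share, held far more GCG RNA than the other 2 and still lay far under both WT libraries. That library was also the highest PAX6-/- library with ISL1 for GHRL, CAT, NEUROG3 and INS, and it raised the group mean of each. CAT was at 0.601, 0.572 and 1.41 CPM in PAX6-/- and 72.5 and 67.1 CPM in WT (log2 fold change -6.35, SE 0.39, adjusted p = 1.16e-07), and NEUROG3 at 663, 584 and 1338 CPM in PAX6-/- and 128 and 102 CPM in WT (log2 fold change 2.90, SE 0.39, adjusted p = 4.24e-04). INS did not pass with this vector either (699, 970.1 and 2787 CPM in PAX6-/- and 8382 and 6918 CPM in WT, log2 fold change -2.36, SE 0.95, adjusted p = 0.203). Of the 20 hormone genes, 2 rose and 7 fell, and of the 21 endocrine transcription factors 3 rose and 1 fell. Over all genes tested with this vector, 3.56% were called, 1.26% higher and 2.3% lower.

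The difference of the genotype effect between the vectors was tested directly. It passed for 0 genes with edgeR, although 916 had an unadjusted p under 0.05, and for 8 with DESeq2 and 136 with limma voom. PRDM14 gives an example of values that lie apart without passing. It had a log2 fold change of 3.12 with BFP and 0.18 with ISL1, and the difference was -2.94 (SE 0.89, adjusted p = 0.894 in edgeR's quasi-likelihood test). For SYT13 the 2 values were 1.43 and 0.23, with a difference of -1.20 (SE 0.30, adjusted p = 0.894).

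**Figure D4:**
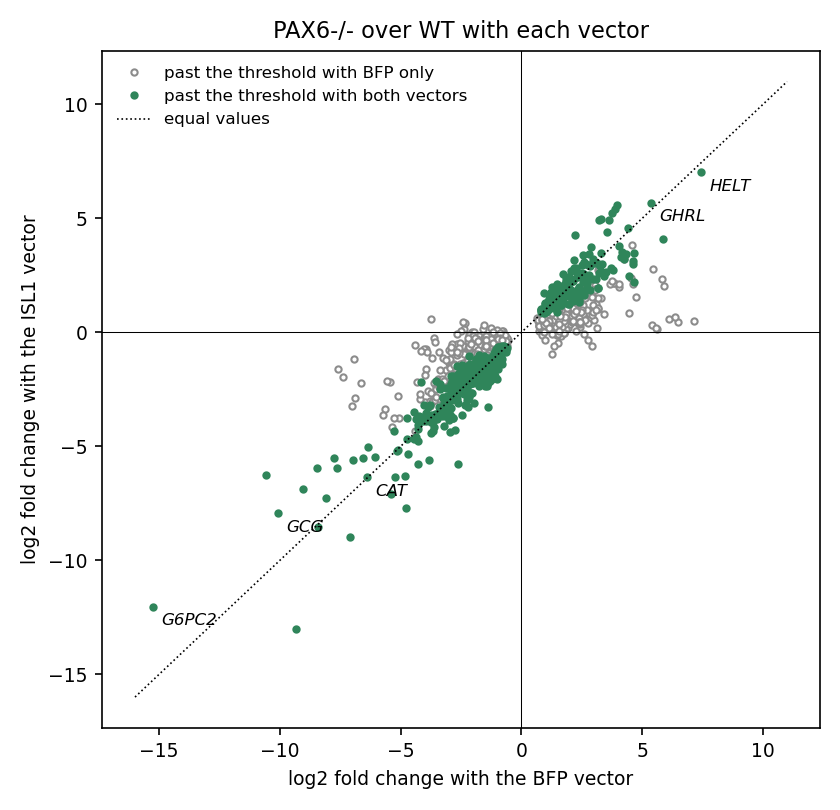
For the 1425 genes called with BFP, the log2 fold change of PAX6-/- over WT with the BFP vector (x axis) and with the ISL1 vector (y axis); filled points passed with both vectors, the dotted line marks equal values. The 534 filled points all lie where both values have the same sign.

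PAX6-/- cells were also set beside the other 2 knockouts with the BFP vector. These comparisons use the same 3 PAX6-/- libraries, so each gene's values are given side by side. Against ISL1-/-, 636 genes passed (2.46%), 440 higher (1.7%) and 196 lower (0.757%); against PDX1-/-, 787 passed (3.04%), 393 higher (1.52%) and 394 lower (1.52%). The first count was between 351 and 1058 and the second between 343 and 1581 when 1 library was left out, with the lowest without PAX6-/- replicate 1 and PDX1-/- replicate 2 and the highest of both without PDX1-/- with ISL1 replicate 4.

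Ghrelin RNA was higher in PAX6-/- cells than in either of the other knockouts. GHRL was at 40.9, 37.3 and 50.8 CPM in ISL1-/- and 137, 145 and 83.4 CPM in PDX1-/- (log2 fold change 6.24 and 4.74, adjusted p = 2.88e-05 and 2.39e-04, edgeR). CRH was at 1.13, 1.18 and 1.32 CPM in ISL1-/- and 5.73, 7.68 and 3.37 CPM in PDX1-/- (log2 fold change 8.00 and 5.79, adjusted p = 8.41e-05 and 6.34e-04). NEUROG3 was at 306, 317 and 391 CPM in ISL1-/- and 139, 130.0 and 74.7 CPM in PDX1-/- (log2 fold change 1.64 and 3.20, adjusted p = 0.00672 and 3.08e-05). HELT, SV2C and ARHGAP36 were also higher than in both, by 7.78, 5.24 and 4.92 against ISL1-/- and by 5.64, 3.77 and 10.22 against PDX1-/- on the log2 scale (largest adjusted p of the 6, 6.39e-04).

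Low glucagon RNA was shared with one knockout and not the other. GCG was at 90.9, 74.2 and 85.3 CPM in ISL1-/-, and the difference from PAX6-/- did not pass (log2 fold change -1.03, SE 0.82, adjusted p = 0.85), and at 14966, 19603 and 16279.8 CPM in PDX1-/- (-8.70, adjusted p = 2.64e-04). SST was higher than in ISL1-/- (4.40, adjusted p = 0.00945) and not called against PDX1-/- (-0.88, 0.696). SLC30A8 was lower than in PDX1-/- (-1.88, adjusted p = 2.63e-04) and not called against ISL1-/- (-0.21, 0.957). For ERO1B neither comparison passed (0.07 and -0.30, adjusted p = 1 and 0.701).

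Several genes were lower than in both other knockouts. CAT was at 104, 117 and 119.6 CPM in ISL1-/- and 157, 178 and 164 CPM in PDX1-/-, above both WT libraries with BFP (log2 fold change of PAX6-/- over each -6.91 and -7.46, adjusted p = 2.82e-08 and 1.15e-08). FFAR1 was at 14.6, 17.9 and 16 CPM in ISL1-/- and 7.6, 9.83 and 7.45 CPM in PDX1-/- (-6.11 and -5.15, adjusted p = 1.54e-04 and 5.89e-04). PTGER3 was at 34.7, 56.5 and 54.7 CPM in ISL1-/- and 80.5, 69.6 and 97.1 CPM in PDX1-/- (-2.56 and -3.32, adjusted p = 1.24e-04 and 2.23e-05). G6PC2 was at 0.992, 1.18 and 1.46 CPM in ISL1-/- and 1.29, 2.25 and 1.51 CPM in PDX1-/- (adjusted p = 0.0129 and 0.00721), while CASR was lower than in ISL1-/- (-2.89, 0.00727) and not called against PDX1-/- (-0.21, 0.934). LMO2 was lower than in PDX1-/- (-1.74, 0.0264) and not called against ISL1-/- (0.78, 0.57).

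**Figure D5:**
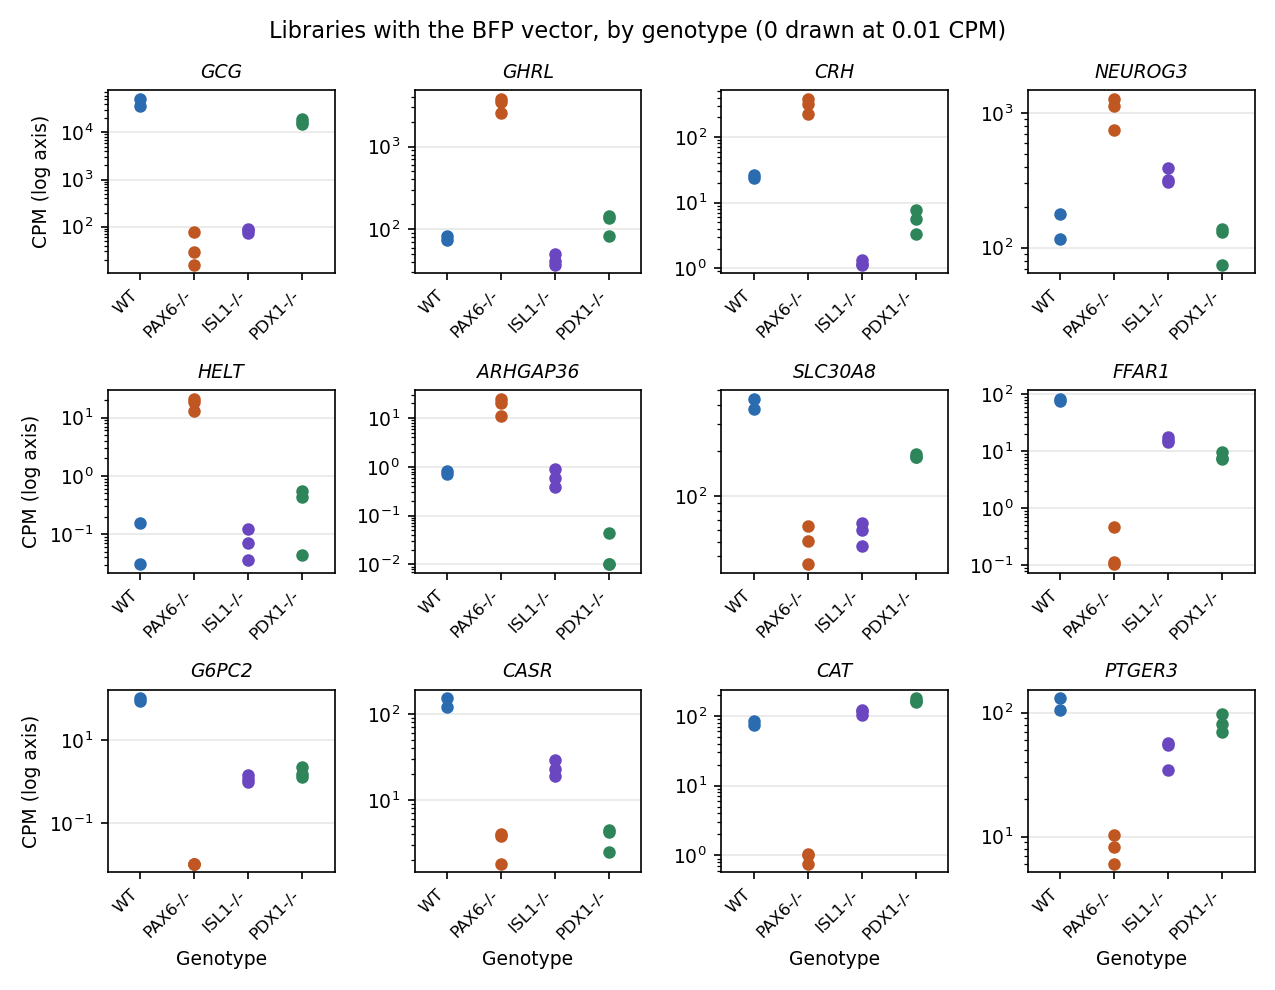
CPM on a log axis of 12 genes (panels) in the libraries with the BFP vector, by genotype on the x axis; each point is 1 library, and 0 is drawn at 0.01 CPM. GHRL, CRH, HELT and NEUROG3 are highest in the 3 PAX6-/- libraries, CAT and PTGER3 lowest, and GCG is low in both PAX6-/- and ISL1-/-.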

How the data were processed

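Per the labels' protocols, RNA from sorted BFP+ cells was made into libraries with SMART-Seq v4 and KAPA EvoPrep. The authors deposited raw read counts per gene; the submitters' processing notes name STAR 2.7.11b, featureCounts 2.1.1 and GRCh38. The annotation release, the strand setting and the treatment of multi-mapping reads are not given in the sources used here. Of 62700 genes, 62699 were used; ANK2 was left out because its record runs over 3 incomplete lines. All 62699 IDs matched a symbol in a name table.

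All 21 libraries were fitted in edgeR 4.0.16 (R 4.3.3) by the quasi-likelihood F test with TMM scaling, with a term for each group and no block; the 2 WT libraries thereby share the spread of all groups (common biological coefficient of variation 0.334). filterByExpr by group (minimum count 10, total 15) left 25884 genes. P-values were adjusted by Benjamini-Hochberg over all of them within each comparison, with a threshold of 0.05. CPM are counts per 1e6 of the TMM library size. Log2 fold changes use a prior count of 0.125. The SE beside a log2 fold change is the absolute log2 fold change divided by the square root of the F statistic. It was not taken from the model directly. A group with all counts at or under 3 gives a lower bound. SDs are over libraries of a group, and intervals of counting error are not shown. Replicates differed beyond sampling noise.

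Named genes are members of 25 lists (427 genes) that pass, hormone, target and defining marker genes, the 12 largest rises and falls (at least 10 CPM in the higher group, no overlap between libraries) and the 5 lowest p. The comparison and the lists were chosen with earlier results of these data known, so list counts are descriptions and no list was tested. Alternatives were DESeq2 1.42.0, voom with sample quality weights (limma 3.58.1), other scalings and filters, replicate blocks and left-out libraries. Leaving out both libraries of high mitochondrial share was chosen after seeing the data. Promoter sequences are from RefSeq. Some members of the lists, though counted in them, are not reported here by name.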

Additional observations from a re-analysis of the deposited data

How the results depend on the processing

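The 5 counts of called genes are given in the order PAX6-/- against WT with BFP, the same with ISL1, the difference between the vectors, PAX6-/- against ISL1-/- and PAX6-/- against PDX1-/-. They were 1425, 922, 0, 636 and 787 in the model of all libraries. Other scalings, filters and the block by title number kept every count within 1.5 times. DESeq2 gave 2455, 1807, 8, 1066 and 1526, and limma voom gave 6710, 4230, 136, 3222 and 3917. With only the groups compared, the counts were 4899, 43, 0, 1613 and 3074. Without both libraries of high mitochondrial share, an alternative chosen after seeing the data, they were 6423, 3329, 40, 2385 and 4447. Leaving out 1 library at a time gave 276 to 2880, 182 to 1853, 0 to 0, 351 to 1058 and 343 to 1581.

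With the replicate block by description number the counts were 3358, 1816, 0, 1271 and 1988, and with the block by title number 1263, 771, 0, 692 and 912. Only PDX1-/- with ISL1 replicate 4 carries description number 4. The block by description number thus gives this library a term of its own and keeps it out of the shared spread. Its counts cannot separate shared cultures from the loss of that library. The labels do not say that a number marks a shared culture. For lack of such a label, the numbers were not taken as pairs. WT shares only numbers 1 and 3 with PAX6-/- with BFP. Deviations from the group means correlated with r = -0.16 and 0.15 for the 2 same-numbered pairs. The deviations of 2 WT libraries from their mean mirror each other, so these values cannot decide whether the numbers mark pairs.

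Among the genes followed through the alternative runs, none reversed its direction. They were the called named genes with INS, PAX6, ISL1 and PDX1. The other named genes that were not called were not followed. Of 110 genes that the rule for named genes or their lists picked and that were called, 37 kept their call without each of the 5 compared libraries. None lost it under voom, the fit of the compared groups alone, the block by description number or DESeq2, but DESeq2 gave no adjusted p for GCG, SST and PECAM1, so it does not test those 3. Each of these settings called more genes than the model of all libraries (6710, 4899, 3358 and 2455 against 1425). That the calls were kept under them was therefore close to set in advance. Upper quartile scaling ended 13 of the calls, the block by title number 11, no filter on low counts 9 and RLE scaling 1 (CPLX1). Precision is limited by the 2 WT libraries and, in the model of all libraries, by the spread shared with the other groups. With the same 2 WT libraries, the BFP comparison called 4899 genes with only the groups compared, against 1425. The SE of INS was 0.20 in that fit and 0.26 without both libraries of high mitochondrial share, against 0.97. Of the 582 called rises 517, and of the 843 called falls 700, were of 1 or more on the log2 scale. A p that misses the threshold does not show equality. Depth allows a count of 0 to be up to 3 counts.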

Other observations

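Beside PAX4, 3 PAX paralogs passed the filter on low counts. PAX1 was at 0.228, 0.393 and 0.416 CPM in the PAX6-/- libraries and 0.044 and 0.0302 CPM in the WT libraries, PAX3 at 0.27, 1.02 and 0.813 CPM in the PAX6-/- libraries and 0.483 and 0.212 CPM in the WT libraries and PAX8 at 0.0207, 0 and 0 CPM in the PAX6-/- libraries and 0.462 and 0.302 CPM in the WT libraries, and none passed edgeR's quasi-likelihood test (adjusted p = 0.0761, 0.595 and 0.0674). No library exceeded 2 CPM for any of them. PAX2, PAX5, PAX7 and PAX9 did not pass the filter.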
